A study of Gallus gallus with 2 samples.

Results

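Globins are the heme proteins that bind oxygen, and their transcripts were followed here in brain RNA of newly hatched chicks on a 2-colour Agilent chicken array. Of 42034 probes on the array, under 40231 distinct entries for the gene, many of them accession numbers, 4 were taken as globin chains, each a gene read by 1 probe, because their description names a globin chain or their gene is HBBA. These are the probes for HBBA (beta-A, the adult beta chain), alpha-D, beta-H and myoglobin, so that 3 of the 4 read hemoglobin chains. The array file calls the HBBA probe HBD, hemoglobin delta, and its RefSeq accession carries the symbol HBBA today. A text search also returned 2 probes that were left out because they name no globin chain, the anchor synthesis gene PIGA, whose description mentions hemoglobinuria, and a probe described by a bacterial hemoglobin-binding protein. The search looked for hemoglobin, or for globin followed by a comma. Another 8 probes carry a globin gene symbol but were not caught by it, and they are described beside the 4 with their own names. They are 2 for HBA1, 2 for HBZ and 1 each for HBE1, NGB, CYGB and GBE. Among them, the HBA1 mRNA probe is described as an alpha-globin mRNA, so it reads a hemoglobin chain although it is not counted among the 4.

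Chicks of the Cobb strain were either trained for 1 h, a session labelled as filial imprinting, or reared in the dark, and total RNA of 16 whole brains per condition was combined by sex. The groups are a pool of 8 trained females and a pool of 8 trained males, against a pool of 8 dark-reared females and a pool of 8 dark-reared males. Each sex has 1 array, with the trained RNA in Cy3 and the dark-reared RNA in Cy5 per the dye labels, while the sample titles name the conditions in the other order. Learning cannot be told apart from light or from other parts of the session, since the only controls stayed in the dark. The dyes were not swapped, and any dye effect of a probe enters its ratio with the same sign on both arrays. No step that removes blood from the brains is named in the labels.

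Hemoglobin is made in red blood cells as a tetramer of alpha-type and beta-type chains, and in birds the red cells keep their nucleus. The chains are encoded in an alpha cluster and a beta cluster, and they switch during development. In the chicken, HBZ (alpha type) with the rho and epsilon chains (beta type) belongs to the primitive red cells of the early embryo. HBA1 (alpha-A), HBAD (alpha-D) and HBBA (beta-A) are made in the definitive red cells that carry the bird through hatching and adult life. Beta-H is a minor chain named for hatching. Myoglobin stores oxygen in muscle, and neuroglobin (NGB), cytoglobin (CYGB) and eye-globin (GBE) are tissue globins of nerve cells, connective tissue cells and the avian eye.

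On the galGal2 build used for the array design, the HBBA probe lies on chromosome 1 from 188133280 to 188133339. The beta-H probe lies in the same cluster from 188128736 to 188128795, and the HBE1 probe from 188126936 to 188126995. The probe for the HBA1 mRNA lies on chromosome 14 from 13965132 to 13965191, in the alpha cluster, and that of the HBZ cDNA from 13958638 to 13959408. The myoglobin probe lies on chromosome 1 from 48721705 to 48721760, far from the beta cluster. The alpha-D probe has no position in the files. Whether a probe sits in an exon or an untranslated region was not analysed here, and neither was rho, for which no probe carries the name. For epsilon, only the HBE1 probe carries a symbol that names it. The HBE1 probe was made from an expressed sequence tag, and since the current RefSeq entry HBE1 has HBBH as a synonym, the beta-type chain it reads is uncertain.

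The array read brain RNA: the 15 markers of neurons, oligodendrocytes and astrocytes that were measured, among them STMN2, SNAP25 and MBP, were well above background in all 4 pools. Of these markers 1 of 8 neuronal genes rose (THY1) and 3 fell (STMN2, GAD1 and NEFL), 1 of 2 oligodendrocyte genes rose (CNP) and 1 fell (MBP), and 1 of 5 astrocyte genes rose (AQP4) and 3 fell (GLUL, S100B and GJA1) in trained pools, where 8.84% of 7478 named genes were called higher and 12.2% lower. The processed signals put S100B at a mean of 0.10, GAD1 at 0.10 and GLUL at -0.021. Median centring put THY1 (-0.40), CNP (-0.53) and AQP4 (-0.55) below 0, where the median named gene was at -0.48. Between 61.5% and 66.5% of probes were well above background in a channel, and 0 were saturated. A probe was kept for the training comparison if, on each array, its signal in either pool was well above background, which held for 27372 probes. All 4 member probes were kept, as were 4 of the 8 other globin probes. These are the HBA1 mRNA, NGB, CYGB and GBE.

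The probes of the adult chains, apart from 1 of the 2 for HBA1, gave clear signals in the hatchling brain, and those of HBZ and HBE1 did not. The HBBA probe was brighter than 99.2% of kept probes in trained females and 99.1% in trained males, against 98.7% in dark-reared females and 98.3% in dark-reared males. Its background-corrected intensity was 9829 in trained females and 9007 in trained males, both in Cy3, against 19668 in dark-reared females and 17334 in dark-reared males, both in Cy5. These intensities precede dye and between-array normalization, so values of different dyes cannot be compared. Within each dye the female value was the higher, but the female and male pools were on different arrays. The HBA1 mRNA probe was brighter than 88.5% of kept probes in trained females and 87.0% in trained males, against 87.0% in dark-reared females and 85.7% in dark-reared males. The alpha-D probe was brighter than 70.5% and 70.7% of kept probes in trained females and males, against 72.1% and 70.4% in dark-reared females and males. A probe's brightness depends on its own binding as well as on its transcript, so these shares describe the spots and give no order of the chains by expression.

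The HBZ cDNA probe was well above background in 1 of 4 channels, that of dark-reared males, and the HBZ tag probe in 0 of 4. The HBE1 tag probe, in the beta cluster, was well above background in 0 of 4 channels too. The second HBA1 probe, also from an expressed sequence tag, was in 0 of 4 channels, although the HBA1 mRNA probe was in all 4, so that a dim tag probe does not show that its transcript was missing. The beta-H probe was well above background in 3 of 4 channels, missing in trained males, and brighter than 11.4% of kept probes in trained females and 4.28% in trained males, against 1.12% in dark-reared females and 4.82% in dark-reared males. The myoglobin probe was brighter than 7.58% of kept probes in trained females and 9.53% in trained males, against 4.57% in dark-reared females and 3.65% in dark-reared males. Beta-H and myoglobin thus lay near the dim end of what the arrays measured, where the offset of 50 added to each signal shrinks ratios toward 0.

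HBBA rose in the trained pools with the loess normalization used here. After loess and between-array normalization its log2 signal was 13.91 in trained females and 13.88 in trained males, against 13.62 in dark-reared females and 13.34 in dark-reared males. Both trained pools lay above both dark-reared pools, and the dark-reared males were the lowest. The log2 ratio of trained over dark-reared was 0.29 in females, a 1.22-fold difference, and 0.54 in males, a 1.45-fold difference. The mean of 0.41 ± 0.17 (SD, n = 2 arrays) is 1.33-fold, with an adjusted p of 0.0179 in limma's test over both arrays. In females 4.08% of kept probes had a higher ratio than HBBA and in males 0.501%. Globin RNA in a whole brain changes with the number of red cells in it and with the RNA per cell, and the arrays cannot tell these apart.

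**Figure D1:**
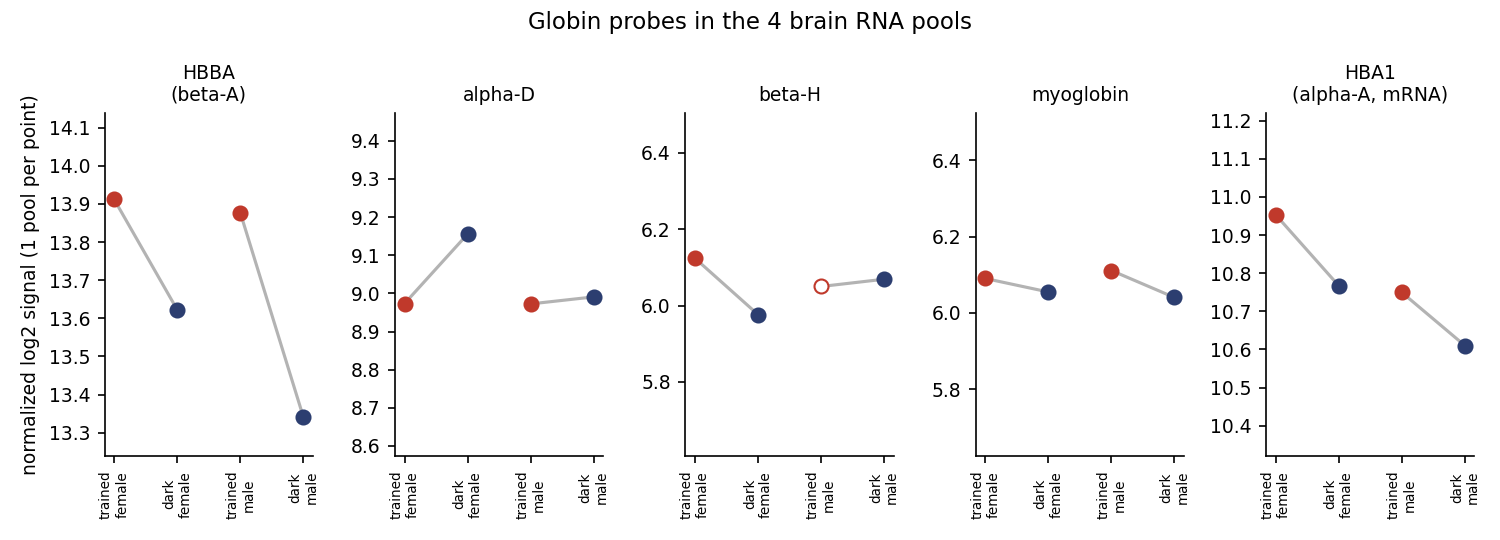
Normalized log2 signal of 5 globin probes in the 4 RNA pools, 1 pool per point, with trained pools in red, dark-reared pools in blue and a line joining the 2 pools of an array; the open point is a pool in which the probe was not well above background. The vertical scale spans the same range in each panel at a different level, and only for HBBA do both trained pools lie above both dark-reared pools by more than 0.2.

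HBBA was the 1 of 4 member probes past the test, in a comparison in which 6.31% of kept probes were called higher and 11.2% lower in trained pools. With 4 members, 1 call is too small a count to set against that background. The call changed with the way the channels were normalized. With median centring in place of loess the HBBA ratio was -0.59 in females and -0.47 in males, where the median kept probe stood at -0.30 and -0.39. Relative to those medians HBBA was at -0.29 in females and -0.090 in males, so its direction against the kept probes as a whole flipped. The brain markers nearest to HBBA in brightness lay lower with that centring. Their means were -0.92 for SNAP25, -1.17 for NEFL, -1.23 for GLUL and -1.17 for GJA1, against -0.53 for HBBA. With loess NEFL (-0.21), GLUL (-0.27) and GJA1 (-0.21) were themselves called lower in trained pools, and SNAP25 was at -0.0065. With the processed signals the means were 0.041 for SNAP25, -0.076 for NEFL, -0.021 for GLUL and -0.12 for GJA1, and none passed. Whether their lower place with median centring includes a fall of their own was not tested. Whether the median-centred ratios follow brightness was not tested. The scanner software's own processed signals kept the direction, with ratios of 0.22 in females and 0.40 in males, but with an adjusted p of 0.272 HBBA did not pass. With those signals 0 of 27372 probes passed, and 4878 had an unadjusted p under 0.05. A normexp offset of 16 in place of 50 left the mean of HBBA at 0.41, with an adjusted p of 0.0598.

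The alpha chains did not pass. HBA1 (alpha-A), a partner of HBBA in the main adult hemoglobin, had log2 signals of 10.95 in trained females and 10.75 in trained males, against 10.77 in dark-reared females and 10.61 in dark-reared males. Its trained pool was the higher on each array, while the trained males lay just below the dark-reared females. The ratio was 0.19 in females and 0.14 in males, with a mean of 0.16 ± 0.033 (SD, n = 2 arrays) and an adjusted p of 0.0897. Alpha-D, the chain of the minor adult hemoglobin, had log2 signals of 8.97 in trained females and 8.97 in trained males, against 9.16 in dark-reared females and 8.99 in dark-reared males. The dark-reared females stood above the other 3 pools, which were close together. The ratio was -0.18 in females and -0.018 in males, with a mean of -0.10 ± 0.12 (SD, n = 2 arrays) and an adjusted p of 0.321.

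The ratios of the adult chains lay apart with loess. The ratio of HBBA exceeded that of alpha-D by 0.47 in females and 0.55 in males, and with the processed signals by 0.49 and 0.41. The ratio of HBBA exceeded that of HBA1 by 0.10 in females and 0.40 in males, and with the processed signals by 0.035 and 0.23. With median centring the female ratio of HBBA lay below that of HBA1, at -0.59 against -0.48. The ratio of HBA1 exceeded that of alpha-D by 0.37 in females and 0.16 in males, and with the processed signals by 0.45 and 0.19. With median centring alpha-D was at -0.72 in females and -0.66 in males. HBA1 was then at -0.48 and -0.65, nearly level with alpha-D in males, and HBBA at -0.59 and -0.47. These gaps between ratios are descriptions of 2 arrays and were not tested. Each chain but HBA1 had a single probe, and the other HBA1 probe gave no usable signal, so the gaps cannot be set against a repeat probe.

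Beta-H, in the beta cluster with HBBA, had log2 signals of 6.12 in trained females and 6.05 in trained males, against 5.98 in dark-reared females and 6.07 in dark-reared males. The pools overlapped, and the ratios took opposite signs, 0.15 in females and -0.019 in males. The mean was 0.064 ± 0.12 (SD, n = 2 arrays), with an adjusted p of 0.529. With the processed signals the ratios were 0.59 in females and 0.24 in males. Myoglobin had log2 signals of 6.09 in trained females and 6.11 in trained males, against 6.06 in dark-reared females and 6.04 in dark-reared males. Its ratio was 0.035 in females and 0.071 in males, with a mean of 0.053 ± 0.025 (SD, n = 2 arrays) and an adjusted p of 0.541.

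**Figure D2:**
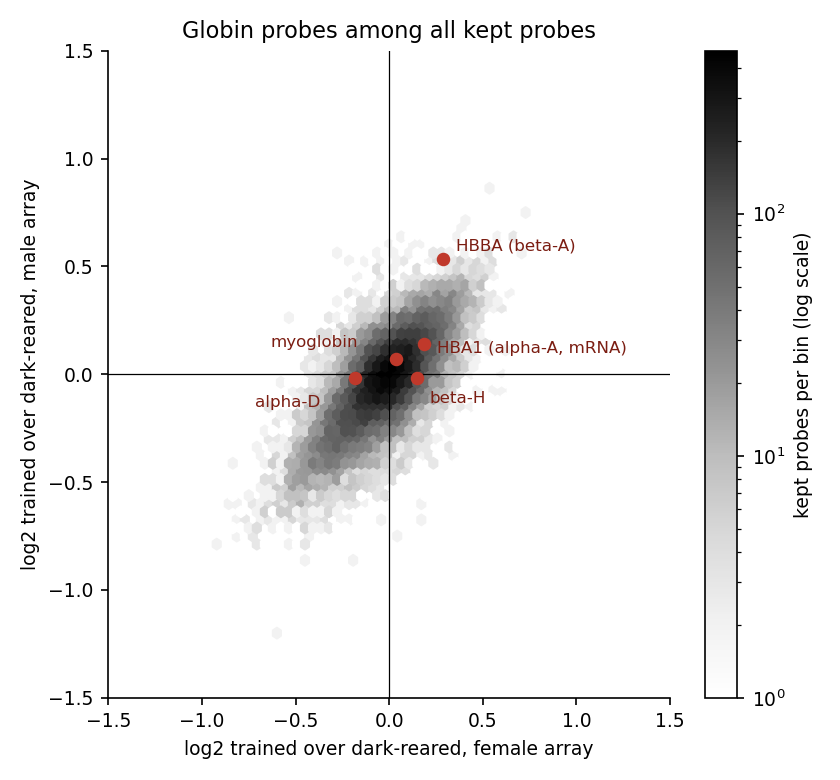
Log2 ratio of trained over dark-reared on the female array (horizontal) and on the male array (vertical) for 27372 kept probes, shaded by the number of probes per bin on a log scale, with 5 globin probes in red. HBBA lies in the upper right at 0.29 and 0.54, at the edge of the cloud, and the other 4 lie inside it.

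The tissue globins expressed in nerve and connective tissue cells did not pass either. NGB, the globin of neurons, had log2 signals of 7.18 in trained females and 7.29 in trained males, against 7.02 in dark-reared females and 7.14 in dark-reared males. Both trained pools were above both dark-reared pools, by small steps, and the ratios of 0.16 in females and 0.16 in males gave a mean of 0.16 ± 0.0062 (SD, n = 2 arrays) with an adjusted p of 0.0894. CYGB, found in fibroblasts and some neurons, had log2 signals of 6.92 in trained females and 6.98 in trained males, against 6.89 in dark-reared females and 6.87 in dark-reared males. Its ratios of 0.035 in females and 0.11 in males gave an adjusted p of 0.420. GBE, the eye-globin of birds, had log2 signals of 7.38 in trained females and 7.66 in trained males, against 7.35 in dark-reared females and 7.39 in dark-reared males. The trained males stood above the other 3 pools, with a ratio of 0.27 in males and 0.025 in females and an adjusted p of 0.217. The list of 6 tissue globins includes myoglobin, which was measured and is given above with the members. Of the others, 4 were measured, with androglobin (ADGB) at a mean of -0.068 as the fourth. None of these 4 was called in either direction (limma, adjusted p from 0.0894 to 0.426). Without background subtraction NGB passed, with a mean of 0.22 and an adjusted p of 0.0372 in limma. With median centring its mean was -0.13, which was 0.21 above the medians of the kept probes.

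**Figure D3:**
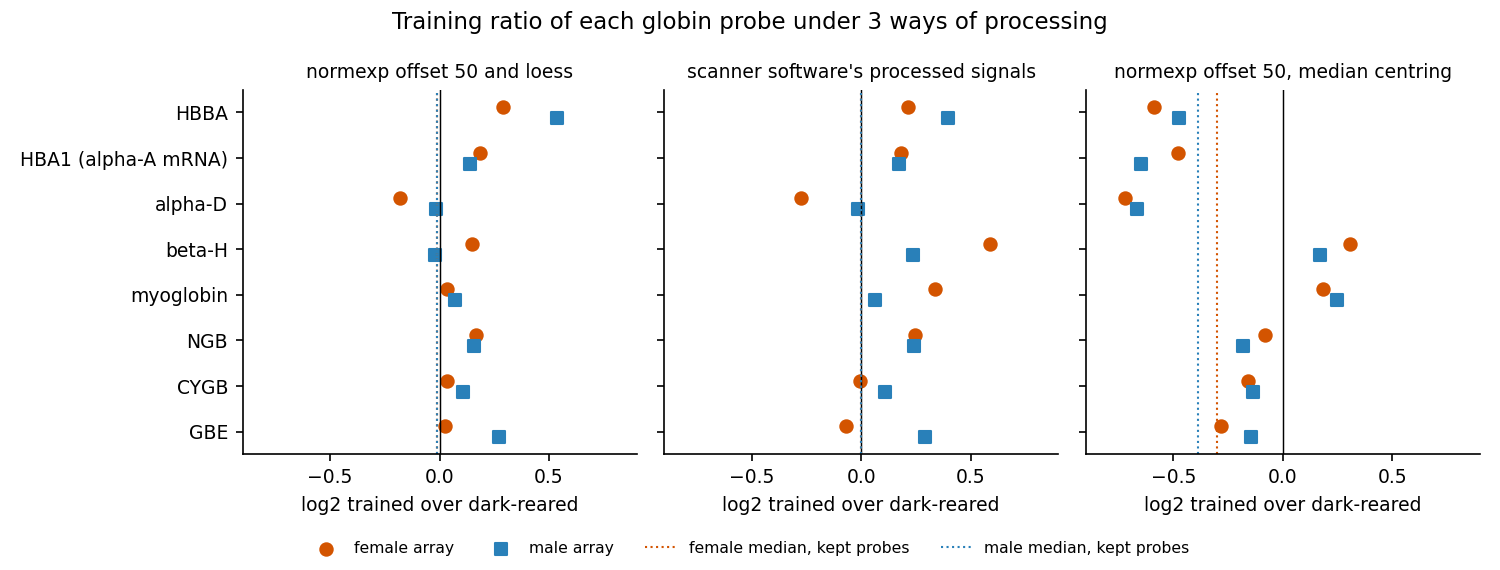
Log2 ratio of trained over dark-reared for 8 globin probes on the female array (orange circles) and the male array (blue squares), from normexp with loess, from the scanner software's processed signals, and from normexp with median centring; dotted lines are the medians of the kept probes of each array. HBBA lies right of 0 in the first and middle panels and left of both dotted lines in the last, at -0.59 and -0.47.

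The size of the ratios on single arrays was modest. A 1.5-fold difference in either direction was reached by 0.964% of kept probes in females and 1.3% in males, and by 0 of the 8 measured globin probes. HBBA came nearest, at 1.45-fold in males.

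Between the sexes, HBBA was higher in dark-reared females than in dark-reared males, by 0.28 on the log2 scale or 1.21-fold, a gap that 5.64% of kept probes matched or passed. In the trained pools females exceeded males by 0.035, which 73.8% of kept probes matched or passed. The larger training ratio of the male array, by 0.25, is the same quantity seen from the other side, since the trained pools were nearly level and the dark-reared males were low. HBA1 was higher in females in both conditions, by 0.20 in trained and 0.16 in dark-reared pools, gaps matched or passed by 10.03% and 19.5% of kept probes. Alpha-D was higher in females by 0.00087 in trained and 0.16 in dark-reared pools, and 17.8% of kept probes matched or passed the gap in dark-reared pools. GBE was lower in females by 0.29 in trained pools, which 4.82% of kept probes matched or passed, and by 0.038 in dark-reared pools. With 1 pool per sex and condition these differences have no replicate check, and no test was made. Both female pools were on 1 array and both male pools on the other. A sex difference, also one seen in both conditions, thus cannot be told apart from a difference between the arrays. A 1.5-fold difference between the sexes was reached by 1.05% of kept probes in trained and 1.26% in dark-reared pools, and by none of the 8 globin probes measured.

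Genes whose pattern over the 4 pools was most like that of HBBA were named by the distance between their log2 signals, each centred on its own mean. Among 7177 named genes well above background in all 4 pools, the nearest was SLC48A1, a heme transporter of lysosomes and endosomes, at a distance of 0.077. It had log2 signals of 9.47 in trained females and 9.39 in trained males, against 9.11 in dark-reared females and 8.93 in dark-reared males. HSD17B13, a dehydrogenase of lipid droplets that the array calls DHRS8, followed at 0.093, the glycolytic enzyme PGAM1 at 0.095, LOC415664 at 0.097 and EPS15, an adaptor of endocytosis, at 0.097. Within a distance of 0.1 lay 20 of 25206 probes, and within 0.2 lay 363. HBA1 was at 0.29, the rank of 1764 among the 25206 probes, and alpha-D at 0.52, the rank of 15171. By this measure the patterns of the other adult chains were farther from HBBA than those of many genes that encode no globin.

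Other genes of red cells and of heme were taken from 7 lists of blood, heme, globin and vessel genes, with each gene read by its brightest probe. The background for them is again 8.84% of named genes called higher and 12.2% lower, 21.1% in either direction, with a median ratio of 0.0051. Of 12 measured genes of red cell membranes and enzymes, 1 rose, 2 fell and 9 did not pass, with a median of 0.020. The one that rose, IFRD1, is a transcriptional co-regulator and neither a membrane protein nor an enzyme of red cells (0.42 in females and 0.33 in males, adjusted p of 0.0130 in limma). CA2, the carbonic anhydrase of red cells and of glia, fell by 0.40 (SD 0.032, n = 2 arrays), and EPB42, a protein of the red cell membrane skeleton, fell by 0.27 (SD 0.013, n = 2 arrays). The blood group protein RHCE had a mean of 0.17, its partner RHAG -0.17 and the spectrin SPTB 0.15, and none of these 3 passed.

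Of 3 measured transcription factors of red cells, none rose, 1 fell and 2 did not pass, with a median of -0.14. KLF1, an activator of the adult beta-globin gene in mammals, had log2 signals of 9.90 in trained females and 9.90 in trained males, against 10.12 in dark-reared females and 10.17 in dark-reared males. Both trained pools lay below both dark-reared pools, the reverse of HBBA, and KLF1 fell by 0.25 (SD 0.034, n = 2 arrays, adjusted p of 0.0294 in limma). GATA1, which switches on globin genes in red cell precursors, had a mean of -0.14 and LMO2, its cofactor, 0.054. The processed signals put GATA1 above 0 on both arrays, at 0.13 in females and 0.34 in males, and the list's median at 0.0079, while KLF1 stayed below 0 on both. TAL1, GFI1B and ZFPM1 were below the filter. How far the number of red cells in the brains contributed to the ratio of HBBA was not tested.

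Heme synthesis, which supplies the group that globins hold, had 3 of 9 measured genes higher and none lower, with a median of 0.061. CPOX, which makes protoporphyrinogen, had ratios of 0.24 in females and 0.38 in males. FECH, which inserts iron into the ring, had 0.33 in females and 0.20 in males, and UROD, an earlier step, had 0.23 in females and 0.19 in males. Their adjusted p values in limma were 0.0223 for CPOX, 0.0311 for FECH and 0.0445 for UROD. ALAS1, the first enzyme of the pathway in cells other than red cells, had a mean of 0.12 and did not pass. ALAS2, the red cell form, was not analysed here.

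Of 9 measured genes of heme and iron handling, 2 rose, none fell and 7 did not pass, with a median of 0.018. The iron carrier transferrin (TF), also made by oligodendrocytes, had ratios of 0.42 in females and 0.19 in males, and heme oxygenase HMOX1, which breaks heme down, had 0.36 in females and 0.20 in males. The iron-responsive regulator IREB2 had a mean of -0.18 and did not pass.

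Other cells of blood and vessels were counted in the same way. Of 5 measured genes of white blood cells and thrombocytes, the antigen-presentation chaperone CD74 rose (0.25 in females and 0.20 in males), and 4 did not pass, the receptor CSF1R of macrophages and microglia among them (mean 0.15). The list had a median of 0.10, and PTPRC, F13A1 and GP9 were below the filter. Of 8 endothelial genes, 3 fell and none rose, with a median of -0.035. The clotting factor carrier VWF fell by 0.71 (SD 0.0028, n = 2 arrays), the transcription factor SOX18 fell by 0.67 (SD 0.0035, n = 2 arrays) and the tight junction protein CLDN5 fell by 0.23 (SD 0.038, n = 2 arrays). VWF had 3 kept probes, of which 1 was called, lower. PECAM1, an adhesion protein of endothelium, had a mean of 0.22 on its brightest probe and did not pass, while its other 2 kept probes lay below 0 and 1 of them was called lower. For CLDN5 the processed signals put the ratio above 0, at 0.096 in females and 0.010 in males. The part of these cell types in the ratio of HBBA was not tested. As for HBBA, median centring put IFRD1, CPOX, FECH, UROD, TF and CD74 below 0, while HMOX1 stayed above it. The median named gene was then at -0.48. CPOX (-0.42) and UROD (-0.41) lay above that median, IFRD1 was level with it, and FECH (-0.54), TF (-0.53) and CD74 (-0.60) lay below it. With the processed signals no gene of these lists passed.

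**Figure D4:**
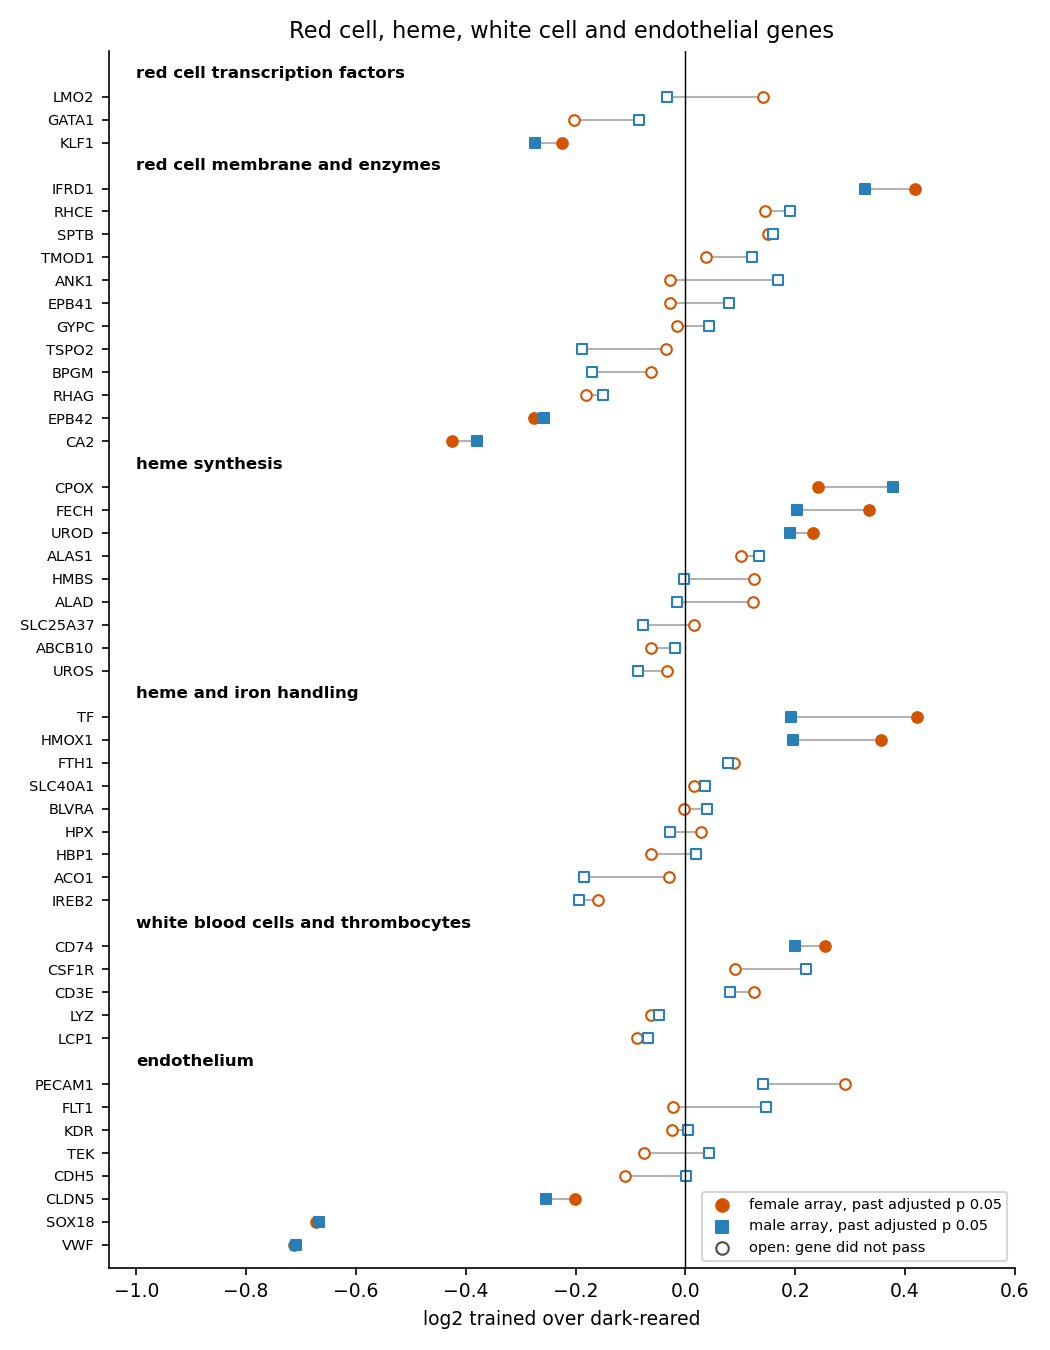
Log2 ratio of trained over dark-reared on the female array (orange circles) and the male array (blue squares) for the measured genes of 6 lists, with filled symbols for genes past an adjusted p of 0.05. Filled symbols lie right of 0 for IFRD1, CPOX, FECH, UROD, TF, HMOX1 and CD74 and left of 0 for KLF1, EPB42, CA2, CLDN5, SOX18 and VWF.

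The neighbours of the globin genes were read within 100 kb of the globin probes of each cluster. In the beta cluster window 12 of 19 probes were kept, and 3 of the 12 were called, HBBA, CCKBR and ARFIP2. The background was 17.5% of kept probes called in either direction. The 3 include HBBA itself, already known to be called. The called neighbours are thus CCKBR and ARFIP2 alone, too few to set against that background. CCKBR, the brain receptor for cholecystokinin, at 82.8 kb from HBBA, had ratios of 0.41 in females and 0.39 in males. ARFIP2, a membrane trafficking protein at 101.6 kb from HBBA, had 0.30 in females and 0.44 in males. Their adjusted p values in limma were 0.0103 for CCKBR and 0.0153 for ARFIP2. The folate receptor FOLR1, nearer at 35.9 kb, had a mean of 0.15 and did not pass. The hemopexin probe (heme carrier of plasma), at 99.4 kb, had ratios of 0.029 in females and -0.029 in males and did not pass. In the alpha cluster window 10 of 14 probes were kept and 1 was called, and it was not that of HBA1. The called probe is one described as a B-G antigen mRNA, between the HBZ and HBA1 probes.

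**Figure D5:**
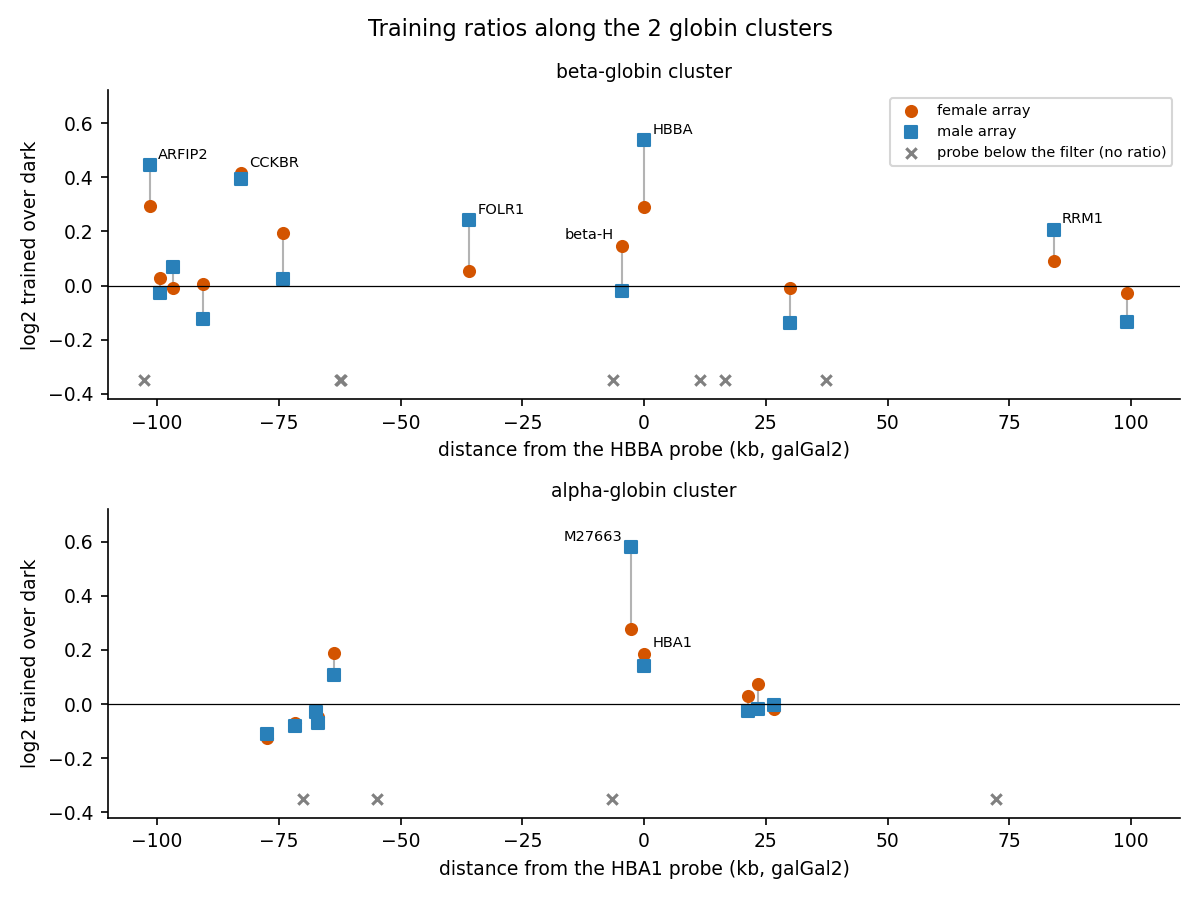
Log2 ratio of trained over dark-reared on the female array (orange circles) and the male array (blue squares) for kept probes within 100 kb of the globin probes of the beta cluster (top) and the alpha cluster (bottom), by distance in kb from the HBBA or HBA1 probe; crosses are probes below the filter and have no ratio. HBBA and the probe M27663 reach the highest male ratios of their windows, 0.54 and 0.58, while beta-H and HBA1 beside them lie at or below 0.19.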

How the data were processed

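The scanner files deposited by the authors hold the mean and the median-background intensity of each spot in both channels, and a processed intensity that the scanner software had dye-normalized, per the file headers. The software is Agilent Feature Extraction, 9.5.3.1 per the file headers and 8.5.1.1 per the submitters' processing notes. In the series table deposited by the authors, the log2 values are the trained over dark-reared ratios of those processed signals. Mean intensities were corrected with normexp (offset 50) and normalized by loess in limma 3.58.1 under R 4.3.3, with control spots at weight 0 and 25 outlier-flagged probes left out. Ratios of both arrays were tested against 0 with lmFit and eBayes, with 1 residual and 5.06 prior degrees of freedom, Benjamini-Hochberg adjustment over 27372 kept probes and a threshold of 0.05. The sexes served as replicates, so a p-value rests in part on the spread between 2 arrays, any sex difference included. The other part is a variance shared over all kept probes, with 5.06 degrees of freedom against 1. A dye effect that repeats on both arrays enters the mean ratio and not the spread, and 2 arrays limit the precision. The arrays correlated at r = 0.67 over the kept probes. Channel levels were taken after loess and Aquantile.

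Probes were named through RefSeq (GRCg7b), 9974 in all, and 3 list genes (GATA1, SPTB and HPX) were matched by their description. Positions are those of galGal2. No sequences were used. Named genes are the globin probes, list members past the test with the 2 largest shifts of each list, and the 5 genes most like HBBA. The members and lists were chosen with earlier results of these data known. RHCE, RHAG, SPTB, LMO2, ALAS1, IREB2, SNAP25, CCKBR, ARFIP2, FOLR1, HPX, VEZF1, ANKRD49, M27663 and genes named as below the filter were chosen after their values were seen. The limma fit was also run on simulated data with the same spread for all probes and no dye effect. Such data cannot show how far the calls on these arrays hold. Alternatives used another offset or no background correction, processed signals, median centring, other filters, 1 array at a time and the turned dye direction.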

Additional observations from a re-analysis of the deposited data

Results flagged for a closer look

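Signs that differ between the groups compared picked out 4 patterns, each with 1 array or 1 pool per value, and none of these differences was tested. The training ratio of beta-H, the hatching beta chain, was 0.15 in females and -0.019 in males. The female minus male difference of beta-H was 0.074 in trained pools, or 1.05-fold, and -0.093 in dark-reared pools. The trained male signal was not well above background, so the size of the trained difference is uncertain. With the processed signals the difference of beta-H had 1 sign, at 0.45 in trained and 0.10 in dark-reared pools. For CYGB the female minus male difference was -0.055 in trained pools and 0.016 in dark-reared pools. For myoglobin it was -0.021 in trained pools and 0.014 in dark-reared pools, and with the processed signals -0.13 and -0.40, of the same sign.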

How the results depend on the processing

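The number of member probes past the test was 1, and it was 0 with a normexp offset of 16, with the processed signals and with the series table. With median centring it was 4, with HBBA (-0.53) and alpha-D (-0.69) lower and beta-H (0.24) and myoglobin (0.22) higher. Of 27372 kept probes, 974 were called higher and 16499 lower with that centring. The mean ratio of HBBA was 0.41 with the offset of 16 and 0.31 with the processed signals or the series table, past the threshold in none of them. It was -0.53 with median centring and -0.41 with the dye direction turned, and leaving out an array gave 0.29 to 0.54. Its adjusted p in limma ranged from 5.81e-08, with median centring and the opposite sign, to 0.272. With median centring the prior degrees of freedom were infinite, so that p rests on the shared variance and not on the spread between arrays. It also tests against 0, while the median kept probe stood at -0.30 in females and -0.39 in males. The p-values of the settings are thus not comparable. In single arrays median centring gave HBBA -0.59 in females and -0.47 in males. Median centring also turned HBA1 to -0.56, NGB to -0.13, CYGB to -0.15 and GBE to -0.21. Relative to the medians of the kept probes HBA1 was then at a mean of -0.22, while NGB was at 0.21, CYGB at 0.19 and GBE at 0.13. With the dye direction turned, alpha-D was at 0.10, beta-H at -0.064, myoglobin at -0.053, HBA1 at -0.16, NGB at -0.16, CYGB at -0.071 and GBE at -0.15. Genes past the test numbered 0 on each list with the processed signals. The lists are, in order, red cell transcription factors, red cell membrane and enzymes, heme synthesis, heme and iron handling, white blood cells and endothelium. With median centring the genes past the test numbered 3, 9, 8, 7, 3 and 7, beside 1 tissue globin other than myoglobin. Of these, 1 was higher on each of the red cell membrane, iron handling and endothelial lists, and all others were lower. Over the 7478 named genes 182 were then called higher and 5319 lower. With the offset of 16 the genes past the test numbered 0 on each of these lists but the endothelial one, with 2, both lower. Over the named genes 107 were then called higher and 168 lower. Over all kept probes the calls were 4800, against 934 with the offset of 16, 17473 with median centring and 0 with the processed signals, and the cause was not tested. Each ratio pairs the trained and dark-reared pools of 1 sex within an array, so the test on 2 ratios is itself the paired one, with 1 residual degree of freedom. Without background subtraction NGB passed, at 0.22 (adjusted p of 0.0372 in limma). Dim probes, beta-H and myoglobin above all, are limited by signal over background.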

Other observations

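A probe in the alpha-globin cluster had ratios close to those of HBBA with loess, but not with median centring. It is described as a partial mRNA of an MHC B-G antigen, clone G6 (M27663), and lies on chromosome 14 from 13962357 to 13962416 of galGal2, 2.77 kb from the HBA1 probe. Its log2 signals were 8.57 in trained females and 8.69 in trained males, against 8.29 in dark-reared females and 8.12 in dark-reared males. Its ratios were 0.28 in females and 0.58 in males (mean 0.43, adjusted p of 0.0211 in limma), and with the processed signals 0.20 and 0.55. Its pattern over the 4 pools was at a distance of 0.14 from HBBA, against 0.29 for HBA1. The other probe described as a B-G antigen, on chromosome 16, had ratios of -0.0056 in females and 0.043 in males and did not pass, with an adjusted p of 0.845. The ratio of HBBA minus that of M27663 was 0.012 in females and -0.043 in males, and with the processed signals 0.018 and -0.16. With median centring M27663 was 0.11 above the median kept probe in females and 0.39 above it in males, while HBBA was at -0.29 and -0.090. With a normexp offset of 16 M27663 did not pass, with an adjusted p of 0.0569, nor with the processed signals (0.293).

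Names can mislead in a search for globins. VEZF1, once listed as a beta globin protein and no globin itself, had ratios of -0.19 in females and -0.075 in males and did not pass. ANKRD49, described as a fetal globin inducing factor, fell by 0.26 (SD 0.10, n = 2 arrays, adjusted p of 0.0354 in limma). Its mean was -0.25 with a normexp offset of 16 and -0.30 with the processed signals. It passed with neither (adjusted p of 0.107 and 0.276 in limma).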
